A study of Mus musculus with 8 samples.

Results

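The genes described here are the integrins, the laminins and fibronectin, 38 of the 51822 gene symbols measured in a culture of mouse osteoblast progenitors treated with LAMZ (locamidazole), an aminoindazole compound. They were chosen by symbol alone: every integrin alpha subunit (Itga), the integrin beta subunits (Itgb) with the integrin-like Itgbl1, every laminin alpha, beta and gamma chain (Lama, Lamb, Lamc) and Fn1. No measured value entered this rule, but earlier results of these data were known when the genes were chosen. It gave 11 laminin chains, Fn1, 6 integrin subunits of leukocytes, the platelet subunit Itga2b, and 19 genes made up of the remaining integrin subunits and Itgbl1. Itgam was not analysed here.

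All cells were grown in a medium that drives osteoblast differentiation, with ascorbic acid, dexamethasone and β-glycerophosphate. The control culture also received the vehicle DMSO, and the LAMZ culture received LAMZ at 1 μmol·L−1. RNA was sequenced at day 7 and at day 14 of culture, with 2 libraries for each of the 4 groups and 8 in all. The labels call the cells MC3T3-E1, an osteoblastic cell line, whereas the methods speak of cultured calvarial cells, which come from the skull of newborn mice and are a mixed population. The labels do not say whether the 2 libraries of a group came from separate cultures, so the p-values measure only the spread between these libraries. The value column of day 7 LAMZ replicate 1 carries another sample label than its GEO record, which was followed here, and the calls at day 7 are also given without it.

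Integrins are receptors of 1 alpha and 1 beta subunit that span the cell membrane and hold cells to the matrix or to other cells. Outside the cell, the alpha subunit largely sets what is bound, which may be collagen, laminin, the RGD sequence of fibronectin and related proteins, or a counter-receptor on another cell. Inside, the beta subunit binds talin and kindlin, which link it to actin. Laminins are cross-shaped trimers of an alpha, a beta and a gamma chain and form the sheet of the basement membrane together with type IV collagen and nidogen. In bone, osteoblasts adhere to fibronectin and type I collagen through integrins, and osteoclasts and macrophages carry integrins of their own.

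The level of each gene is given as RPKM, a read count corrected for gene length and library depth, so that levels may be compared between genes. The depth recovered from the values was 3463538 to 5832101 mapped reads per library, so that for a short gene 1 RPKM stands for few reads. At the same RPKM a longer gene holds more reads. The osteoblast marker genes were present in all libraries, with a summed level of 7096 to 15838 RPKM over 9 genes. Of these 9, 6 were higher with LAMZ at day 7 and 6 at day 14, beside 4.35% and 6.96% of all tested genes. On both days 5 of the 9 were higher. Macrophage marker genes were present as well in the control culture. The 15 macrophage markers summed to 467.8 and 609.7 RPKM in the day 7 control libraries and to 1142 and 1182 RPKM at day 14, against 7.36 to 9.43 RPKM in the 4 LAMZ libraries. In these bulk libraries, fewer cells of a type and less RNA per cell cannot be told apart.

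The promoters of 4 members are shown first, because these genes stand for the patterns described further on. Itga1 and Itga10 both encode alpha subunits of collagen receptors and moved in opposite directions with LAMZ, and Itga4 and Itgax are subunits found on leukocytes whose reads were nearly lost in the LAMZ libraries at day 14. Each sequence is the 250 bases upstream of the start site in RefSeq, build GRCm38.p6, read on the strand of the gene. Capitals mark a match to one of the motifs searched. The stretches are chr13:115101965-115102214 on the minus strand (Itga1), chr3:96645334-96645583 on the plus strand (Itga10), chr2:79255176-79255425 on the plus strand (Itga4) and chr7:128129300-128129549 on the plus strand (Itgax).
Itga1: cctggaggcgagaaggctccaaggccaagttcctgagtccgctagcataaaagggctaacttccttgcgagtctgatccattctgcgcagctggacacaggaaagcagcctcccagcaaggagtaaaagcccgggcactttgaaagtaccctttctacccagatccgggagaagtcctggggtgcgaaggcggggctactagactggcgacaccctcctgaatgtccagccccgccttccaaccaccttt
Itga10: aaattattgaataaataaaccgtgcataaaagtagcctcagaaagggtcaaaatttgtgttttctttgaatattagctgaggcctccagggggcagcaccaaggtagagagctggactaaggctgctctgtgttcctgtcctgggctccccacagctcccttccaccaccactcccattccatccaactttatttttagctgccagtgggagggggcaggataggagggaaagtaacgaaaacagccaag
Itga4: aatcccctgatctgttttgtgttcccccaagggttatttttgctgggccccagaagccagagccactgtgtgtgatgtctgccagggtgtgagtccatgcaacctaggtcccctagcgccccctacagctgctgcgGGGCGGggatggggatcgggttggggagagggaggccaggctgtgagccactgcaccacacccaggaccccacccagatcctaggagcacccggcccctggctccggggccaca
Itgax: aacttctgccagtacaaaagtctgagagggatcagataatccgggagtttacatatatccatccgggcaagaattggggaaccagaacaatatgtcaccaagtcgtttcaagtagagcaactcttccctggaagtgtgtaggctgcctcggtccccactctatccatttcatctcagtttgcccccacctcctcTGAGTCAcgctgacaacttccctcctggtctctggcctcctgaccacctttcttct

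A promoter entry was found for 23 of the 38 members, some with several start sites, which gave 26 windows. The motifs were searched on both strands. GAGGAA, the core of sites for the myeloid factor PU.1, was in 12 of the 26 windows and in 23.3% of all 32851 promoters of the same length. These windows were those of Itga11, Itga2b, Itga3, Itga5, Itgav, Itgb1, Itgb6, Lama2, Lama5, Lamb1, Lamb2 and Lamb3. The windows of the leukocyte integrins Itgax and Itgb7, and that of Itga4, did not hold it. GGGCGG, the GC box bound by Sp1, was in 9 windows, including that of Itga4, and in 32.7% of all promoters. TGACTCA or TGAGTCA, the palindromic AP-1 site, was in 1 window, that of Itgax, and in 4.46% of all promoters. The CArG box of serum response factor, searched in a single form of its letters, was in 0 of the 26 windows and in 0.0609% of all promoters. A match shows only that the letters are there.

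On both days the laminin chains Lama2, Lamb1 and Lamc1 and the integrin subunits Itga1 and Itgb2 were lower with LAMZ than in the control, and the integrin subunits Itga11 and Itgb3 were higher. At day 14, Fn1, Lama1, Itga7 and Itga10 were higher as well, and Itgav and Itgbl1 lower. Itga8 was higher at day 7. Of the 25 members that passed the filter on low values, 8 were called at day 7 in limma at an adjusted p under 0.05, 3 higher and 5 lower with LAMZ, beside 12.8% of all tested genes, 4.35% higher and 8.49% lower. At day 14, 13 of the 25 were called, 6 higher and 7 lower, beside 23.0% of all tested genes, 6.96% higher and 16.0% lower. The median log2 fold change of the tested members was −0.00013 at day 7 and 0.0084 at day 14, and that of all 12514 tested genes was −0.080 and −0.15. The plot of fold changes shows both days for each tested member.

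**Figure D1:**
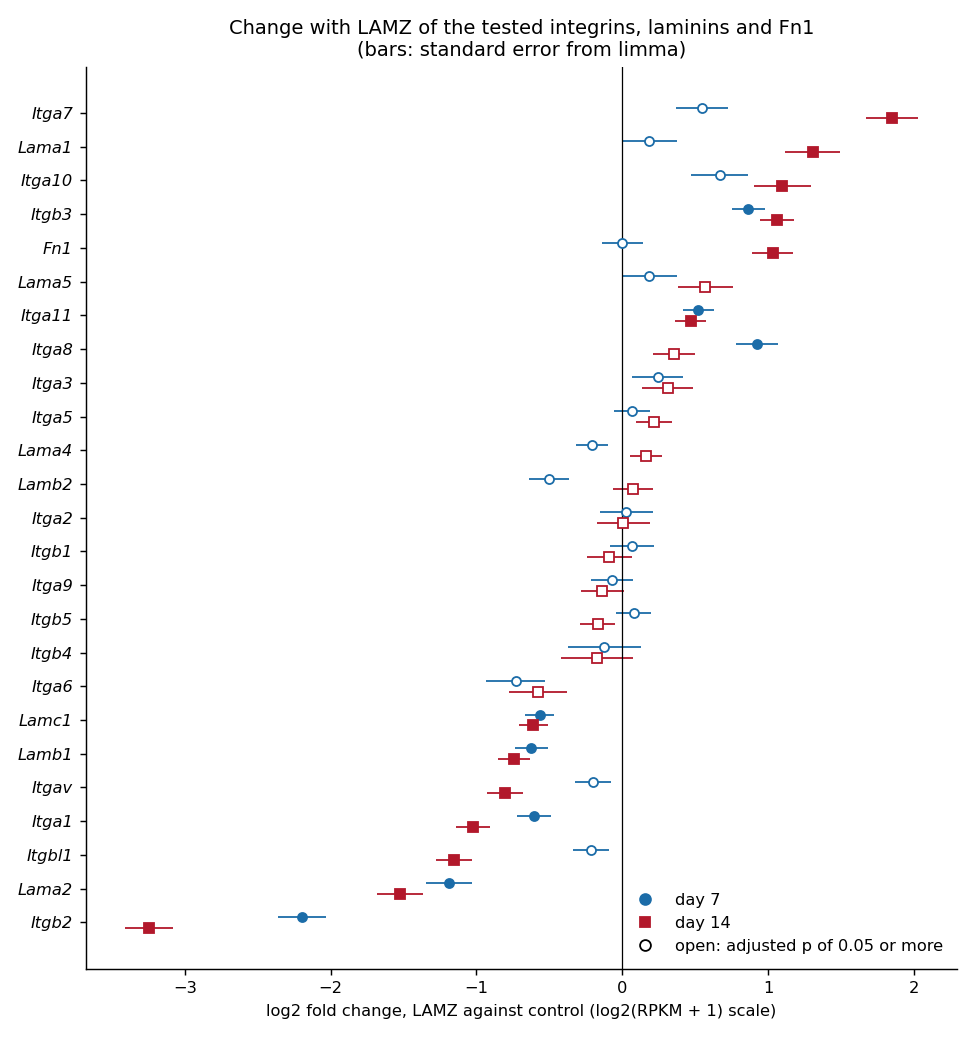
Log2 fold change of LAMZ against control with its standard error for the 25 tested members, on the log2(RPKM + 1) scale, with circles for day 7, squares for day 14 and open symbols for an adjusted p of 0.05 or more. Itga7, Lama1, Itga10, Itgb3, Fn1 and Itga11 stand above 0 at day 14 with filled symbols, and Itgb2 and Lama2 lie lowest on both days.

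The direction of the calls leaned on the scaling between libraries. With every library rescaled to the same sum, which moved the median of all tested genes to −0.31 at day 7 and −0.43 at day 14, the calls were 2 higher and 10 lower at day 7 and 5 higher and 11 lower at day 14, beside 2.49% and 26.2% of all tested genes at day 7 and 3.78% and 42.5% at day 14. With each library shifted so that its tested genes had the same median (median centring), they were 5 and 5 at day 7 and 10 and 7 at day 14, beside 6.85% and 5.95% of all tested genes at day 7 and 12.8% and 9.98% at day 14. None of the values called in the fit as reported changed sign under either scaling. The calls at day 7 were fewer when a LAMZ library was left out, 4 in place of 8 without replicate 1 and 4 without replicate 2 of that group, and the share of all tested genes called fell from 12.8% to 4.21% and 5.26%. Of the called members, Itga1, Lama2, Itga8 and Itgav share 3.68%, 3.86%, 5.05% and 5.9% of their exonic length with another gene, on the other strand except for Itga1, and it is not stated whether counting used the strand.

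Among the laminins, a trio of chains, one of each kind, was lower with LAMZ on both days. Of 7 tested chains, 3 were lower at day 7 (Lama2, Lamb1 and Lamc1), beside 8.49% of all tested genes. At day 14 the same 3 were lower and Lama1 was higher, beside 16.0% of all tested genes lower and 6.96% higher. The median log2 fold change over the 7 chains was −0.50 at day 7 and 0.074 at day 14, beside −0.080 and −0.15 for all tested genes.

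Lama2 (chr10:26980036-27619758) encodes the alpha chain of merosin, the laminin of muscle and peripheral nerve basement membranes. Its RPKM was 3.99 and 4.59 in the day 7 control libraries and 1.13 and 1.53 with LAMZ, and at day 14 it was 4.01 and 4.93 in the control and 0.808 and 0.990 with LAMZ. On both days the LAMZ libraries lay below the control libraries with no overlap. The log2 fold change was −1.19 (SE 0.16, limma adjusted p = 0.0030) at day 7 and −1.52 (SE 0.16, limma adjusted p = 0.00052) at day 14. With a pseudocount of 5 the values were −0.55 and −0.68, and both remained past the threshold.

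Lamb1 (chr12:31265234-31329644) encodes the beta chain shared by many laminins. It had an RPKM of 24.3 and 24.4 in the day 7 control and 15.3 and 15.6 with LAMZ, and at day 14 of 18.9 and 21.0 in the control and 12.1 and 11.0 with LAMZ. The groups did not overlap on either day. In limma the log2 fold change was −0.62 (SE 0.11, limma adjusted p = 0.011) at day 7 and −0.74 (SE 0.11, limma adjusted p = 0.0029) at day 14. At day 7 the adjusted p was 0.083 without LAMZ replicate 1 and 0.063 without LAMZ replicate 2.

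Lamc1 (chr1:153218922-153332786) encodes the gamma chain present in nearly every laminin. Its RPKM was 29.9 and 30.4 in the day 7 control and 19.7 and 20.4 with LAMZ, and at day 14 it was 26.6 and 27.4 in the control and 17.4 and 17.3 with LAMZ. The spread within each pair was narrow, and all LAMZ libraries lay below all control libraries. On the log2(RPKM + 1) scale the change was −0.57 (SE 0.10, limma adjusted p = 0.011) at day 7 and −0.61 (SE 0.10, limma adjusted p = 0.0044) at day 14. At day 7 the adjusted p was 0.087 without LAMZ replicate 1 and 0.060 without LAMZ replicate 2. With every library rescaled to the same sum, the log2 fold changes of Lamc1 were −0.86 and −0.96. The gamma chain Lamc3 reached at most 0.305 RPKM in any library.

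Lama1 (chr17:67697259-67822647), which encodes the alpha chain of the laminin first assembled in the embryo, was higher with LAMZ at day 14. Its RPKM was 1.06 and 1.00 in the day 7 control and 1.16 and 1.47 with LAMZ, and at day 14 it was 0.411 and 0.418 in the control and 2.99 and 2.07 with LAMZ. The day 14 control libraries were the lowest of the 8, with 21 and 18 reads, and the day 14 LAMZ libraries the highest, with 169 and 98 reads. As a log2 fold change, the difference was 1.31 (SE 0.19, limma adjusted p = 0.0024) at day 14 and 0.19 (SE 0.19, limma adjusted p = 0.57) at day 7, and the difference between the days did not pass the threshold (1.12, SE 0.27, limma adjusted p = 0.11). At this low level the fold change depended on the pseudocount, and it was 2.33 at day 14 with 0.1 and 0.47 with 5.

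Lama4, the alpha chain of laminins of vessels and mesenchymal tissue, was the most abundant alpha chain in every library, with 69.8% to 82.8% of the summed alpha chain RPKM. It had an RPKM of 19.6 and 20.0 in the day 7 control, 16.8 and 17.2 with LAMZ at day 7, 15.7 and 15.9 in the day 14 control and 18.9 and 16.6 with LAMZ at day 14. The LAMZ libraries lay below the control at day 7 and above it at day 14. Neither difference passed the threshold, with a log2 fold change of −0.21 (SE 0.11, limma adjusted p = 0.27) and 0.16 (SE 0.11, limma adjusted p = 0.33). Under the rescaled sums Lama4 was called lower at day 7, and under the median centring it was called higher at day 14, so no direction is given for it.

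The make-up of the alpha chains shifted accordingly. Lama2 made up 15.6% and 17.2% of the summed alpha RPKM in the day 7 control and 5.57% and 7.13% with LAMZ, and at day 14 it made up 18.7% and 21.7% in the control and 3.27% and 4.54% with LAMZ. Lama1 made up 1.91% and 1.84% in the day 14 control and 12.1% and 9.47% with LAMZ. The order of these chains was therefore Lama2 above Lama1 in both control groups and Lama1 above Lama2 with LAMZ at day 14, while in the day 7 LAMZ libraries the RPKM of the pair overlapped. Lama5, of epithelial and vascular basement membranes, had 0.867 and 1.11 RPKM in the day 14 control and 1.82 and 2.07 with LAMZ (log2 fold change 0.57, SE 0.19, limma adjusted p = 0.066), and it was called higher at day 14 with a pseudocount of 5 and with median centring (limma adjusted p = 0.043 and 0.020).

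Lamb2, the beta chain of laminins at synapses and in the kidney, was the most abundant laminin chain of all. Its RPKM was 62.6 and 54.4 in the day 7 control and 43.2 and 38.8 with LAMZ, and at day 14 it was 52.1 and 49.7 in the control and 48.5 and 59.2 with LAMZ. The groups were apart at day 7 and overlapped at day 14. The log2 fold change was −0.50 (SE 0.14, limma adjusted p = 0.053) at day 7, −0.80 with the rescaled sums (limma adjusted p = 0.0053), and 0.07 (SE 0.14, limma adjusted p = 0.74) at day 14. Lama3 and Lamb3, chains of laminins of epithelia, were low throughout, at most 0.752 and 1.52 RPKM.

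**Figure D2:**
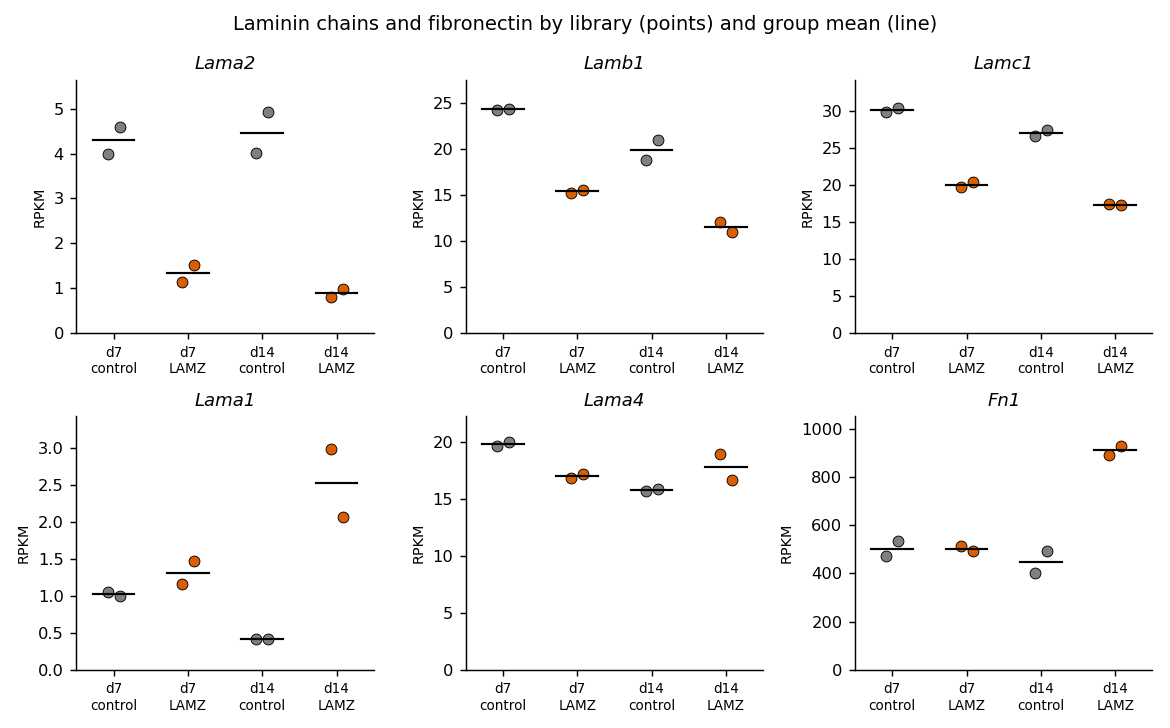
RPKM of 5 laminin chains and of Fn1 in each library (points) with the mean of each group (line), grey for control and orange for LAMZ, each panel with its own axis from 0. Lama2, Lamb1 and Lamc1 lie lower with LAMZ on both days, whereas Lama1 and Fn1 are highest in the day 14 LAMZ libraries.

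Partners of the laminins in the basement membrane were read from a list of 33 matrix partners and ligands, of which 28 were tested. Of these, 4 were higher and 12 lower at day 7, and 5 were higher and 14 lower at day 14. The shares of all tested genes were 4.35% higher and 8.49% lower at day 7, and 6.96% and 16.0% at day 14. The median log2 fold change was −0.30 and −0.51, beside −0.080 and −0.15 for all tested genes. Nid1, nidogen 1, which ties laminin to type IV collagen, had 106.0 and 106.5 RPKM in the day 7 control and 50.0 and 53.2 with LAMZ, and 93.3 and 91.9 in the day 14 control and 36.9 and 34.2 with LAMZ. It was lower on both days, by a log2 fold change of −1.03 (limma adjusted p = 0.00098) and −1.36 (limma adjusted p = 0.00014). The type IV collagen chains Col4a1 (−1.03 and −1.33) and Col4a2 (−0.82 and −1.02) were also past the threshold on both days. Nid1, Col4a1 and Col4a2 were singled out after their values were seen, because they bind or lie beside laminin. Nid2, Hspg2 (perlecan) and Agrn (agrin) of the same sheet were not called on either day, with log2 fold changes between −0.31 and 0.36.

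The 3 partners named by the size of their change were Egfl6, Fbn1 and Fbln2. Egfl6, a matrix protein with an RGD sequence that binds integrins, had 93.7 and 71.9 RPKM in the day 7 control and 14.2 and 14.1 with LAMZ, and 74.0 and 76.5 in the day 14 control and 4.63 and 4.17 with LAMZ. Its log2 fold change was −2.45 (SE 0.14, limma adjusted p = 8.8e-05) at day 7 and −3.82 (SE 0.14, limma adjusted p = 4.7e-06) at day 14. Fbn1, fibrillin 1 of the microfibrils, had log2 fold changes of −1.96 and −2.60, and Fbln2, fibulin 2, had −1.70 and −1.97, all past the threshold. Among ligands that were higher on both days were Tnc, tenascin C (0.92 and 1.15), and Npnt, nephronectin, the ligand of the Itga8 receptor (0.89 and 0.60), which were also chosen after their values were seen.

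Fibronectin, the main ligand of the RGD-binding integrins, was the most abundant member by far. Fn1 (chr1:71585520-71653200) had 473.3 and 532.6 RPKM in the day 7 control and 511.8 and 492.4 with LAMZ, and at day 14 it had 400.7 and 492.1 in the control and 891.6 and 929.2 with LAMZ. The groups overlapped at day 7, and at day 14 each LAMZ library exceeded each control library. In limma the log2 fold change was 1.03 (SE 0.14, limma adjusted p = 0.0018) at day 14 and −0.00013 (SE 0.14, limma adjusted p = 1.0) at day 7. The difference between the days was 1.03 (SE 0.20, limma adjusted p = 0.070), and it passed the threshold with median centring (limma adjusted p = 0.049). With every library rescaled to the same sum, the day 14 change was 0.67 and was still called. The gene shares 2.5% of its exonic length with Apol7d on the other strand, which had at most 0.414 RPKM.

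The alpha subunits of collagen receptors changed in opposite directions. Of the 4 tested, Itga11 was higher and Itga1 lower at day 7, and at day 14 Itga10 and Itga11 were higher and Itga1 lower, while Itga2 passed on neither day. Beside these, 4.35% of all tested genes were higher and 8.49% lower at day 7, and 6.96% and 16.0% at day 14.

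Itga11 (chr9:62677826-62783982), a receptor for fibrillar collagen found on fibroblasts and osteoblasts, was the most abundant of them. Its RPKM was 42.1 and 46.1 in the day 7 control and 63.8 and 63.5 with LAMZ, and at day 14 it was 37.5 and 39.7 in the control and 53.8 and 53.9 with LAMZ. The groups were apart on both days. On the log2(RPKM + 1) scale the change was 0.52 (SE 0.11, limma adjusted p = 0.018) at day 7 and 0.47 (SE 0.11, limma adjusted p = 0.017) at day 14. Each of these calls was lost under 4 of the 14 alternatives tried, more than for any other member called with LAMZ. With the rescaled sums the values were 0.22 (limma adjusted p = 0.21) at day 7 and 0.11 (limma adjusted p = 0.46) at day 14. At day 7 the adjusted p was 0.073 without control replicate 1, 0.11 without LAMZ replicate 1 and 0.096 without LAMZ replicate 2, and at day 14 it was 0.073, 0.077 and 0.084 without the same-numbered libraries of that day.

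Itga10 (chr3:96645584-96664519), best known as the collagen receptor of chondrocytes, had 13.2 and 19.3 RPKM in the day 7 control and 28.1 and 24.0 with LAMZ, and at day 14 it had 18.0 and 21.5 in the control and 38.9 and 48.0 with LAMZ. Both LAMZ groups lay above their control, and the day 14 LAMZ libraries were the highest of the 8. As a log2 fold change, the difference was 1.10 (SE 0.20, limma adjusted p = 0.0062) at day 14 and 0.67 (SE 0.20, limma adjusted p = 0.064) at day 7. At day 7 it was called with median centring (0.78, limma adjusted p = 0.044) and without control replicate 2 (0.93, limma adjusted p = 0.030). A part of this value is uncertain, because 33.53% of the exonic length of Itga10 is shared with the gene Gm42957 on the same strand, which was listed at 0.585 to 2.71 RPKM, and the sources used here do not say how such reads were split.

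Itga1 (chr13:114953096-115101964), whose receptor binds type IV as well as fibrillar collagen, went the other way. Its RPKM was 8.38 and 8.15 in the day 7 control and 4.70 and 5.48 with LAMZ, and at day 14 it was 9.31 and 9.39 in the control and 3.95 and 4.21 with LAMZ. The groups were well apart on both days. The log2 fold change was −0.61 (SE 0.12, limma adjusted p = 0.014) at day 7 and −1.03 (SE 0.12, limma adjusted p = 0.00078) at day 14. At day 7 the adjusted p was 0.058 without control replicate 1 and 0.11 without LAMZ replicate 1, and with a pseudocount of 5 the values were −0.39 and −0.66. Itga2, a second collagen receptor of epithelia and platelets, which lies next to Itga1 on chromosome 13, had 0.796 to 1.41 RPKM over the 8 libraries, with log2 fold changes of 0.03 and 0.01.

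As a share of the summed RPKM of these 4 subunits, Itga1 made up 12.9% and 10.9% in the day 7 control and 4.81% and 5.81% with LAMZ, and 14.2% and 13.1% in the day 14 control and 4.05% and 3.93% with LAMZ. Itga10 made up 27.4% and 29.9% in the day 14 control and 39.9% and 44.9% with LAMZ. The sum itself was 64.8 and 74.9 RPKM in the day 7 control and 97.7 and 94.4 with LAMZ, and 65.6 and 71.6 in the day 14 control and 97.6 and 107.1 with LAMZ. Both LAMZ groups lay above both control groups in that sum.

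Of the subunits of laminin receptors, Itga7 changed. Itga7 (chr10:128933818-128958282), whose receptor binds laminin in skeletal and smooth muscle, had 1.16 and 1.51 RPKM in the day 7 control and 2.91 and 1.97 with LAMZ, and at day 14 it had 1.34 and 1.83 in the control and 8.52 and 8.04 with LAMZ. The day 14 LAMZ libraries, with 402 and 317 reads, stood far above the other 6, which had 35 to 101. In limma the log2 fold change was 1.85 (SE 0.18, limma adjusted p = 0.00037) at day 14, the greatest rise among the members, and 0.55 (SE 0.18, limma adjusted p = 0.085) at day 7, where it was called with median centring (0.66, limma adjusted p = 0.048). The difference between the days was 1.30 (SE 0.25, limma adjusted p = 0.071). It passed the threshold with a pseudocount of 5 (0.78, limma adjusted p = 0.032), at which the day 14 change was 1.01.

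The summed level of 5 muscle markers moved beside Itga7. It was 0.791 and 0.990 RPKM in the day 7 control, 1.58 and 1.90 with LAMZ at day 7, 1.53 and 2.33 in the day 14 control and 6.40 and 7.07 with LAMZ at day 14. Only 1 of the 5, Des, which encodes desmin, reached the filter, and it was higher at day 14 (log2 fold change 1.49). Des made up most of the sum, with 6.39 and 5.84 RPKM in the day 14 LAMZ libraries, so the sum mainly shows this gene. The part of muscle cells in the result for Itga7 was not tested.

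The laminin receptor subunits Itga3, Itga6 and Itgb4 were low and were not called on either day. Itga3 had 2.05 to 3.48 RPKM over the 8 libraries, and Itgb4, the beta subunit of the epithelial hemidesmosome, had 0.383 to 1.10. Itga6, the alpha subunit found on epithelia and many progenitor cells, passed the filter through the control libraries alone. It had 0.992 to 1.45 RPKM in the 4 control libraries and 0.191 to 0.551 with LAMZ, with no overlap. Its log2 fold change was −0.73 (SE 0.20, limma adjusted p = 0.051) at day 7 and −0.58 (SE 0.20, limma adjusted p = 0.075) at day 14, and it was called on both days with the rescaled sums (limma adjusted p = 0.023 and 0.017).

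Among the receptors for RGD, the pair Itgav and Itgb3 moved apart. Of 5 tested subunits, Itga8 and Itgb3 were higher at day 7, and at day 14 Itgb3 was higher and Itgav lower. At day 7, 4.35% of all tested genes were higher, and at day 14, 6.96% were higher and 16.0% lower. Itgb3 (chr11:104608000-104670476), the beta subunit of the receptor for vitronectin and, with Itga2b, of the platelet receptor for fibrinogen, had 7.55 and 7.44 RPKM in the day 7 control and 14.4 and 14.6 with LAMZ, and 6.85 and 7.68 in the day 14 control and 15.4 and 17.1 with LAMZ. All 4 LAMZ libraries lay above all 4 control libraries, with little spread inside a pair. On the log2(RPKM + 1) scale the change was 0.87 (SE 0.11, limma adjusted p = 0.0029) at day 7 and 1.06 (SE 0.11, limma adjusted p = 0.00063) at day 14.

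Itgav (chr2:83724397-83806916), the alpha subunit that pairs with several beta subunits to bind vitronectin, fibronectin and latent TGF-β, had 18.4 and 19.8 RPKM in the day 7 control and 15.2 and 17.9 with LAMZ, and at day 14 it had 16.5 and 17.8 in the control and 9.74 and 9.06 with LAMZ. The day 14 LAMZ libraries were the lowest of the 8. As a log2 fold change, the difference was −0.80 (SE 0.12, limma adjusted p = 0.0031) at day 14 and −0.20 (SE 0.12, limma adjusted p = 0.34) at day 7, and the difference between the days did not pass the threshold (−0.61, SE 0.17, limma adjusted p = 0.16). With the rescaled sums it was also called at day 7 (−0.49, limma adjusted p = 0.029). The RPKM of Itgb3 divided by that of Itgav was 0.411 and 0.377 in the day 7 control and 0.947 and 0.816 with LAMZ, and 0.415 and 0.431 in the day 14 control and 1.58 and 1.89 with LAMZ. Itgb3 was thus below Itgav in the control and above it with LAMZ at day 14.

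Itga8 (chr2:12106632-12301922), the alpha subunit of the nephronectin receptor of mesenchymal cells, had 4.61 and 5.02 RPKM in the day 7 control and 9.64 and 10.4 with LAMZ, and at day 14 it had 7.46 and 5.52 in the control and 8.35 and 8.67 with LAMZ. The LAMZ libraries lay above the control on both days, with a narrower gap at day 14. The log2 fold change was 0.92 (SE 0.14, limma adjusted p = 0.0060) at day 7 and 0.36 (SE 0.14, limma adjusted p = 0.12) at day 14. At day 7 the adjusted p was 0.051 without LAMZ replicate 2, and at day 14 the gene was called with median centring (0.55, limma adjusted p = 0.046) and without control replicate 1 (0.54, limma adjusted p = 0.047).

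The remaining RGD-binding subunits with a high level were not called on either day. Itgb5, the beta subunit of a second vitronectin receptor, had 93.2 and 80.0 RPKM in the day 7 control, 92.5 and 90.1 with LAMZ at day 7, 95.8 and 105.4 in the day 14 control and 88.7 and 89.8 with LAMZ at day 14. Its log2 fold change was 0.08 (SE 0.12, limma adjusted p = 0.72) and −0.17 (SE 0.12, limma adjusted p = 0.35), and it was called lower at day 14 with the rescaled sums (−0.53). Itga5, the alpha subunit of the classical fibronectin receptor, had 26.6 and 25.2 RPKM in the day 7 control, 25.3 and 29.3 with LAMZ at day 7, 21.1 and 24.1 in the day 14 control and 26.2 and 26.7 with LAMZ at day 14. Its log2 fold change was 0.07 (SE 0.12, limma adjusted p = 0.77) and 0.22 (SE 0.12, limma adjusted p = 0.24), and it was called higher at day 14 with median centring (0.41). For these genes no direction is given. Itgb6 and Itgb8, which activate TGF-β in epithelia and other tissues, did not pass the filter, with at most 0.0786 and 0.384 RPKM.

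Itgb1 (chr8:128685654-128733200) encodes the beta subunit shared by the collagen receptors, by most laminin receptors and by the fibronectin receptor, and it was the most abundant integrin subunit. It had 142.4 and 120.1 RPKM in the day 7 control and 129.3 and 145.1 with LAMZ, and at day 14 it had 112.8 and 131.0 in the control and 125.8 and 103.7 with LAMZ. The groups overlapped on both days. In limma the log2 fold change was 0.07 (SE 0.15, limma adjusted p = 0.83) at day 7 and −0.09 (SE 0.15, limma adjusted p = 0.71) at day 14, and the gene was called lower at day 14 with the rescaled sums (−0.45). Itga9, a subunit that pairs with Itgb1 to bind tenascin C and VCAM-1, had 2.77 to 4.23 RPKM and was not called on either day. With the rescaled sums Itga9 was called lower at day 14 (−0.43, limma adjusted p = 0.042).

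Itgbl1 (chr14:123659971-123975618) encodes a secreted protein with repeats like those of the beta subunits but no membrane anchor. Its RPKM was 47.7 and 45.1 in the day 7 control and 38.6 and 41.2 with LAMZ, and at day 14 it was 46.4 and 53.1 in the control and 23.4 and 20.3 with LAMZ. The LAMZ libraries lay below the control on both days, with a wider gap at day 14. On the log2(RPKM + 1) scale the change was −1.15 (SE 0.13, limma adjusted p = 0.00065) at day 14 and −0.21 (SE 0.13, limma adjusted p = 0.32) at day 7. With the rescaled sums Itgbl1 was also called lower at day 7 (−0.51, limma adjusted p = 0.023). The difference between the days was −0.94 (SE 0.18, limma adjusted p = 0.067).

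**Figure D3:**
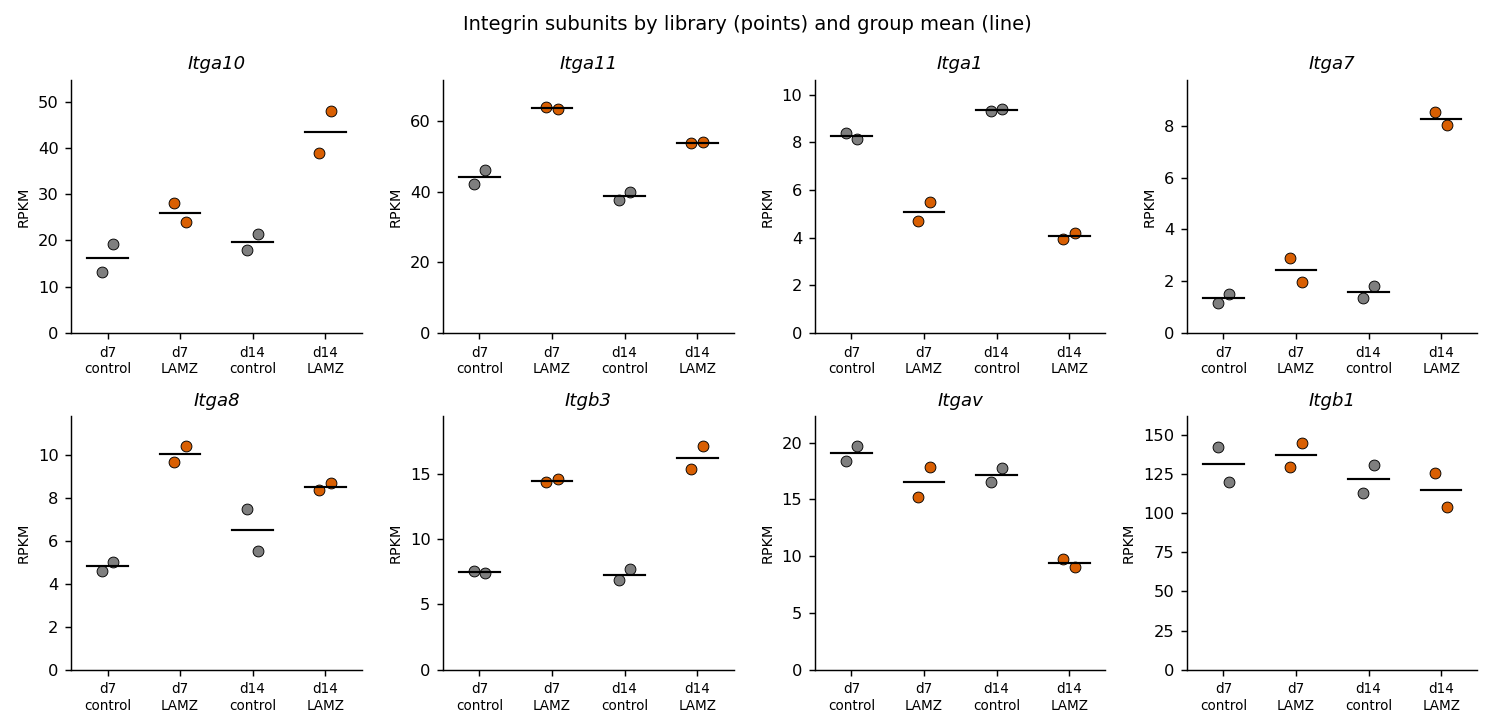
RPKM of 8 integrin subunits in each library (points) with the mean of each group (line), grey for control and orange for LAMZ, each panel with its own axis from 0. Itga10, Itga11 and Itgb3 lie higher and Itga1 lower with LAMZ on both days, Itga7 is high in the day 14 LAMZ libraries alone, Itgav is lowest there, and the groups of Itgb1 overlap.

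The leukocyte integrins were set apart from those of stromal cells. Itgb2 (chr10:77530252-77565708), the beta subunit shared by the integrins of leukocytes, was the only one of the 6 to pass the filter, and it did so through the control libraries. It had 3.30 and 4.26 RPKM in the day 7 control, from 38 and 45 reads, and 9.40 and 8.12 RPKM in the day 14 control, from 154 and 112 reads. The LAMZ libraries held 1 and 0 reads at day 7 and 1 and 0 reads at day 14. From the summed reads per mapped read, the level of Itgb2 was 108.7-fold lower with LAMZ at day 7 (exact binomial 95% interval 19.0 to 4345) and 288.2-fold lower at day 14 (51.3 to 11424). These intervals cover counting error only. Such ratios were computed only for members with at most 3 reads in each LAMZ library of a day and more in each control library. That rule picks members whose groups are apart, so the intervals are no test of the difference. Its fitted log2 fold change was −2.20 (SE 0.17, limma adjusted p = 0.00025) at day 7 and −3.24 (SE 0.17, limma adjusted p = 2.1e-05) at day 14, values that move with the pseudocount, from −0.80 to −4.86 at day 7 and from −1.45 to −6.14 at day 14.

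The alpha partners of Itgb2 that were analysed, Itgax, Itgal and Itgad, were scarce even in the control. Itgam was not among them. Itgax, which encodes the alpha subunit CD11c of dendritic cells and macrophages, had 0 and 2 reads in the day 7 control and 15 and 15 in the day 14 control, against 0 and 1 with LAMZ at day 7 and 1 and 0 with LAMZ at day 14. Itgal, the alpha subunit of LFA-1, had 4 and 11 reads in the day 7 control and 19 and 9 in the day 14 control, against 2 and 2 with LAMZ at day 7 and 0 and 2 with LAMZ at day 14. The control libraries held more reads than the LAMZ libraries for Itgal on both days and for Itgax at day 14. When no filter was applied, Itgax was called lower at day 14 (−0.68, SE 0.098, limma adjusted p = 0.010, beside 7.41% of the 29944 genes then tested), and Itgal was not (−0.46, SE 0.15, limma adjusted p = 0.14). By summed reads at day 14, the level of Itgax was 32.5-fold lower (exact 95% interval 5.40 to 1326) and that of Itgal 15.2-fold lower (3.82 to 131.4). Itgax and Itgad are neighbours on chromosome 7, which also holds Itgal, and Itgad, with Itgae and Itgb7 of mucosal lymphocytes, had at most 6 reads in any library.

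Itga4, the alpha subunit of the VCAM-1 receptor VLA-4 of leukocytes, which also occurs on other cells, did not pass the filter. It had 9 and 16 reads in the day 7 control and 13 and 17 with LAMZ at day 7, and 47 and 38 reads in the day 14 control and 3 and 3 with LAMZ at day 14. The groups overlapped at day 7 and were far apart at day 14. Without the filter it was called lower at day 14 (−0.63, SE 0.12, limma adjusted p = 0.024), with 15.3-fold fewer reads per mapped read (exact 95% interval 6.77 to 43.0), and its log2 fold change at day 7 was −0.03 (SE 0.12). The platelet subunit Itga2b had 21 and 10 reads in the day 7 control and 6 and 11 with LAMZ, and 26 and 24 in the day 14 control and 12 and 8 with LAMZ, with a log2 fold change without the filter of −0.41 and −0.53 (limma adjusted p = 0.42 and 0.18).

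Most macrophage markers, like Itgb2, were lower with LAMZ on both days. Itga4 differed from them at day 7, where its groups overlapped, and Itgax had at most 2 reads in any library of that day. Of the 15 markers, 13 were lower with LAMZ at day 7 and 14 at day 14, beside 8.49% and 16.0% of all tested genes. However, 13 of the 15 reached 1 RPKM in control libraries only and so passed the filter through them. C1qa, C1qb and C1qc, subunits of complement C1q made by macrophages, were at 0 in all 4 LAMZ libraries. The summed leukocyte integrins had 4.04 and 4.97 RPKM in the day 7 control, 0.592 and 0.0984 with LAMZ at day 7, 10.9 and 9.11 in the day 14 control and 0.305 and 0.480 with LAMZ at day 14. The part of macrophages in the results for Itgb2, Itgax, Itgal and Itga4, and in those for the integrins that both macrophages and osteoblasts carry, was not tested.

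Apart from Pf4, markers of other blood cells were scarce. The 6 lymphocyte markers summed to at most 1.36 RPKM and the 6 granulocyte and mast cell markers to at most 3.14 RPKM in any library. No lymphocyte marker passed the filter, and 1 of the granulocyte and mast cell list did, Kit, which was higher at day 7 (1.18). Kit reached 1 RPKM in LAMZ libraries only and so passed the filter through them. Of the 5 platelet markers only Pf4 passed, and it did so through the control libraries. Pf4 was lower with LAMZ on both days (−3.69 and −4.40). The 5 markers summed to 11.4 and 12.9 RPKM in the day 7 control and 0.389 and 0.456 with LAMZ. At day 14 they summed to 27.0 and 27.1 RPKM in the control and 1.24 and 0.481 with LAMZ. In the control this sum was nearly all Pf4. Gp9 was at 0 in every library, and Ppbp, Gp1ba and Gp6 reached at most 0.216, 0.442 and 0.104 RPKM in any library. The 8 endothelial markers summed to 3.85 to 5.33 RPKM over the 8 libraries. Of 3 tested, Tek was lower on both days, and Erg was higher at day 14. Of all tested genes, 8.49% were lower at day 7, and 6.96% were higher and 16.0% lower at day 14. Tek reached 1 RPKM in control libraries only and so passed the filter through them. The 6 epithelial markers summed to 0.130 to 1.91 RPKM with none tested, and the 4 glial markers to 6.02 to 10.5 RPKM with 0 of 1 tested called on either day.

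**Figure D4:**
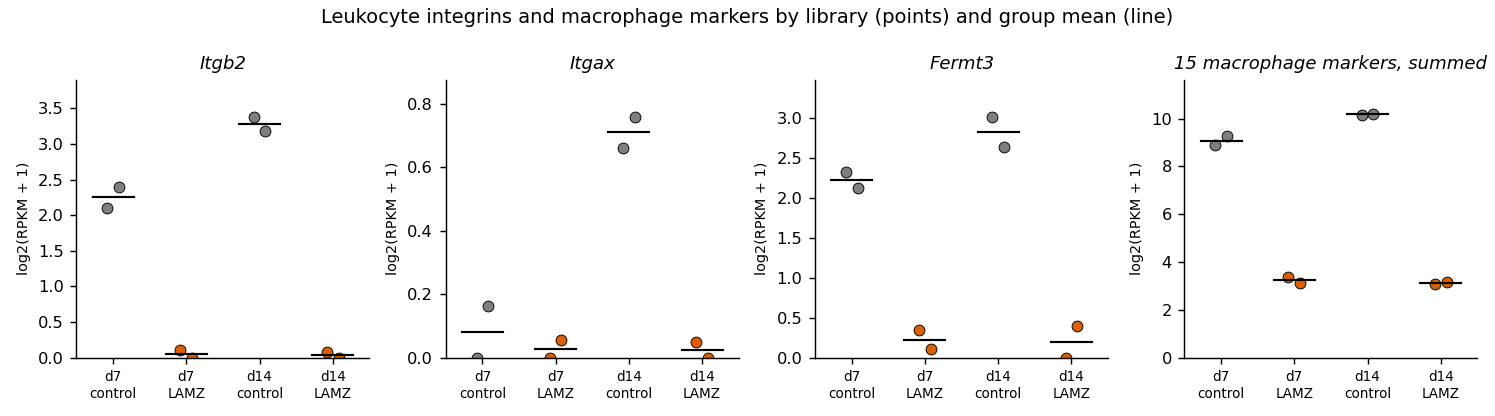
Level as log2(RPKM + 1) of Itgb2, Itgax, Fermt3 and the summed RPKM of 15 macrophage markers in each library (points) with the group mean (line), grey for control and orange for LAMZ. The LAMZ points lie near 0 for the 3 genes and near 3 for the summed markers, and in the control culture the day 14 points lie above the day 7 points in all 4 panels.

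On the inside of the cell, 30 genes of the adhesion machinery were examined, of which 26 were tested. At day 7, 0 were higher and 9 lower with LAMZ, and at day 14, 4 were higher and 11 lower. Of all tested genes, 4.35% were higher and 8.49% lower at day 7, and 6.96% and 16.0% at day 14. The median log2 fold change was −0.29 and −0.26, beside −0.080 and −0.15 for all tested genes. Fermt3, the kindlin of blood cells, had 4.0 and 3.35 RPKM in the day 7 control and 0.272 and 0.0742 with LAMZ, and 7.05 and 5.22 in the day 14 control and 0 and 0.317 with LAMZ (log2 fold change −2.00 and −2.62). Like Itgb2, it was near 0 in all LAMZ libraries. Fermt3 and Parvb of this list reached 1 RPKM in control libraries only and so passed the filter through them. Zyx, which encodes zyxin of mature focal adhesions, had 26.7 and 27.4 RPKM in the day 7 control and 10.2 and 12.6 with LAMZ, and 26.2 and 30.9 in the day 14 control and 14.6 and 14.9 with LAMZ (−1.18 and −0.90, limma adjusted p = 0.0016 and 0.0029). Lims2, an adaptor of integrin-linked kinase, was higher at day 14 (1.00, limma adjusted p = 0.0077) and had a log2 fold change of 0.68 (limma adjusted p = 0.051) at day 7.

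Between the days, few of these genes were called in the control culture. Of the 25 tested members, 1 was called at day 14 against day 7 of control culture, beside 4.86% of all tested genes, with 5 at an unadjusted p under 0.05 beside 2727 (21.8%) of all 12514. The called member was Itgb2, which was higher at day 14 (log2 fold change 1.03, SE 0.17, limma adjusted p = 0.017). That call did not hold without day 7 control replicate 1 (limma adjusted p = 0.087), day 14 control replicate 1 (0.14) or day 14 control replicate 2 (0.069), nor with a pseudocount of 0.1 (0.18) or without the filter (0.060). Among the macrophage markers, 11 of 15 were higher at day 14 in the same comparison, beside 2.46% of all tested genes.

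The effect of LAMZ was also compared between the days. By limma, 0 of the 25 tested members were called for that difference, beside 0.623% of all tested genes. At an unadjusted p under 0.05 there were 10, beside 2061 (16.5%) of all 12514. The greatest differences were those of Itga7 (1.30), Lama1 (1.12), Itgb2 (−1.05), Fn1 (1.03) and Itgbl1 (−0.94), with limma adjusted p between 0.067 and 0.11. For these genes the day 14 change was therefore larger in size than the day 7 change without being shown to differ from it. For Itgb2, with at most 1 read in any LAMZ library, the difference is close to the change of the control culture between the days with its sign turned. With a pseudocount of 5, 2 members were called (Itga7 and Itgb2), and with median centring 1 was (Fn1). Among the members with calls on both days and similar values, the difference was −0.12 (SE 0.16) for Lamb1, −0.05 (SE 0.15) for Itga11, −0.04 (SE 0.14) for Lamc1 and 0.19 (SE 0.16) for Itgb3.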

How the data were processed

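Total RNA of each culture was read on an Ion Proton sequencer. The authors then used CLC Genomics Workbench, in a version not given in the sources used here, to map and count the reads. The submitters' processing notes name the build mm10. For each of the 8 libraries the authors deposited RPKM values, scaled to gene length and to the mapped reads of that library, with no scaling between libraries stated. Of 51826 entries, 4 with repeated, date-like symbols were dropped. Mapped reads were recovered with gene lengths of GENCODE M21 (GRCm38) as the number at which low values became whole reads, within 0.05 read for 94.7% to 96.9% of low values (860 to 1484 checked in each). Gene coordinates are those of that annotation, and 30 of the 38 members had whole reads in all 8 libraries. Intervals on reads cover counting error only, since reads made by PCR are not independent molecules.

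The filter kept a gene if 2 or more libraries reached 1 RPKM, which left 12514 genes. They were tested as log2(RPKM + 1) in limma 3.58.1 (R 4.3.3), with 4 groups taken from the labels in one fit, 4 residual degrees of freedom and a mean-variance trend. P-values are two-sided and adjusted over all tested genes by the Benjamini-Hochberg method, with a threshold of 0.05. A fold change on this scale understates the change of low genes. The comparisons were LAMZ against control at day 7 and at day 14, the difference between these effects, and day 14 against day 7 of control culture, so that comparisons share control libraries.

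Values in every library are given for members past the threshold in any comparison or with a mean RPKM of at least 10. For the lists of adhesion machinery and matrix partners, the 3 genes with the largest change past the threshold are named. Counts are given for these and for marker lists of macrophages, lymphocytes, granulocytes and mast cells, platelets, endothelium, epithelium, muscle, glia and osteoblasts. The members and lists were chosen with earlier results of these data known. The fit was tested on simulated data. Alternatives were pseudocounts of 0.1 and 5, no filter, both scalings between libraries, a replicate block and leaving out each library. Promoter windows came from RefSeq. Protein sequences were not analysed here. The values of 1 member are not reported here.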

Additional observations from a re-analysis of the deposited data

Results flagged for a closer look

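Beside the members, 3 of the listed genes passed limma's test of the difference between the effect of LAMZ at day 7 and at day 14, namely Egfl6, C1qb and C1qc. Egfl6, the integrin ligand of the matrix, fell more at day 14, with a difference of −1.37 in log2 fold change (SE 0.20, limma adjusted p = 0.037). The macrophage markers C1qb (−1.44, limma adjusted p = 0.029) and C1qc (limma adjusted p = 0.049) stood at 0 in all LAMZ libraries on both days. For this pair the value is only the change of the control culture from day 7 to day 14 (1.44 for C1qb) with its sign turned, and it does not show that the effect of LAMZ differed between the days.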

How the results depend on the processing

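Each of the 22 called member values was recomputed under 14 alternatives, all planned. Of the 308 values that resulted, 288 kept direction and call, 20 kept the direction without the call and 0 reversed, and 15 of the 22 kept their call throughout. With one library left out at a time, 4 to 9 members were called at day 7, 12 to 13 at day 14, 0 to 0 for the difference between the days and 0 to 1 for the control culture over time. The difference between the days gave 2 calls with a pseudocount of 5 and 1 with median centring. The control culture over time gave 0 calls with a pseudocount of 0.1, 0 without the filter and 3 with the rescaled sums (Itgb2, Itga8 and Itgb5). The cause was not tested. Replicate numbers are shared between groups in the labels, but the deviations of same-numbered libraries correlated by −0.0166 at day 7 and 0.0158 at day 14. A replicate block gave 8 and 13 calls at day 7 and day 14, 0 for the difference and 1 for the control culture, and it changed no call of a member. Depth limits the genes near 1 RPKM, and the 13 members below the filter rest on at most 59 reads in any library.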
